A study of Saccharomyces cerevisiae with 12 samples.

Results

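Transcript levels of yeast grown with doxycycline (Dox) were compared directly with those of yeast grown with tetracycline (Tet), without the untreated cultures as a reference. Of 7080 loci in the deposited tables, 6616 had a usable estimate with both drugs, and 5927 of these had a mean level of at least 10 FPKM over both drugs. FPKM counts sequenced fragments relative to the length of the transcript and the size of the library. A ratio of Dox to Tet could be taken for 5920 loci, and the other 7 were listed at 0 with either drug. The study grew 3 cultures in each of 4 groups: control YPD medium without drug, and YPD with Tet, Dox or 4-epidoxycycline (4-ED), each drug at 1.5 µg/ml. All cultures were of a single MATa strain, R1158, which the labels give as its parent BY4741, and they started from the same precursor culture. R1158 carries mutations in HIS3, LEU2 and MET17 (MET15) and the tetracycline-controlled transactivator tTA, driven by the CMV promoter at URA3, also in the controls. No target gene was placed under a tetracycline-regulated promoter. Per the study's methods, cultures with a drug grew more slowly and took longer to reach the same density. An effect of the drug and an effect of growth rate therefore cannot be told apart, and growth with Dox and with Tet was not compared here.

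Tetracyclines stop bacterial growth by binding the small subunit of the bacterial ribosome, and mitochondria, which descend from bacteria, translate their own few mRNAs on ribosomes of related structure. In the laboratory the same compounds are used to switch genes, since they release tTA from its operator in Tet-Off strains. Dox and Tet are structural isomers: both have the same fused ring system, and a hydroxyl group sits at a different ring carbon in each. Which of these compounds disturbs the yeast transcriptome least was the question of the study. The direct comparison asks how far the pair differ from each other at the same dose.

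The tables give 1 pooled value per group for its 3 cultures. The spread between cultures and the number of reads behind a single gene are therefore unknown, and no difference below has a test, an interval or a replicate check. Dox and Tet form the only pair of compounds compared, and genes were sorted by fold alone. Dox values were brought to the scale of the Tet table through the shared controls (factor 0.984), and 4-ED values likewise (factor 1.01). The control values of the Dox and Tet tables then coincided almost exactly, since the 1st and 99th percentiles of their ratio were 0.98403 and 0.98423. In bulk cultures a different share of cells in a given state and a different amount of RNA per cell cannot be told apart.

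The methods give the mating type as MATa, and its markers were measured with Tet at between 28.4 FPKM (STE6) and 4347 FPKM (MFA2). Of the alpha-cell markers, the receptor gene STE3 stood at 5.81 FPKM, SAG1 at 24.3, MF(ALPHA)2 at 31.6 and MF(ALPHA)1 at 58.9 FPKM. The ranges of both lists overlapped, since both alpha-factor genes stood above STE6, while the a-factor genes stood far above every alpha-cell marker. LEU2 and MET17 were listed at 0 in all 4 groups. URA3 was present at 322 FPKM with Tet and 253 FPKM with Dox, the locus at which tTA was placed. HIS3 stood at 68.1 FPKM with Tet and 68.5 FPKM with Dox, so its transcript was measured despite the mutation. An exact 0 in these tables need not mean absence, since 19 loci that Cuffdiff skipped for too many reads, the ribosomal DNA and the abundant stress gene HSP12 among them, are listed at 0.

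Sequences are shown for 3 sets that the results turn on. The first holds box C/D small nucleolar RNAs (snoRNAs), which guide the methylation of ribosomal RNA and which gave several of the widest gaps between the drugs. The capitals mark the first TGATGA (the core of box C) and the last CTGA (box D), as found by their letters.
snR72, chromosome XIII, 298554 to 298651, plus strand: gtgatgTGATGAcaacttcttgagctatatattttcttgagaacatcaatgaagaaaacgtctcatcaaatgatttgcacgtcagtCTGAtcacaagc
snR56, chromosome II, 88190 to 88277, plus strand: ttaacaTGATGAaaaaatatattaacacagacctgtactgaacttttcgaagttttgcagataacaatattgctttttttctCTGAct
snR67, chromosome V, 61352 to 61433, plus strand: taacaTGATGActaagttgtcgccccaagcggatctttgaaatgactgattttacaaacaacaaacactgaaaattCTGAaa
snR52, chromosome V, 431129 to 431220, minus strand: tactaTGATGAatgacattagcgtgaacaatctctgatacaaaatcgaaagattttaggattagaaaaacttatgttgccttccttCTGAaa
All coordinates and sequences are from the RefSeq R64 genome and its annotation, the build the authors used. The 4 RNAs are between 82 and 98 bases long.

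The second set is the coding sequences of RPL41A and RPL41B, duplicated genes for the same very small protein of the large ribosomal subunit, of which RPL41B gave the largest ratio of all. The capital marks the only base at which they differ.
RPL41A, chromosome IV, 130407 to 130484, minus strand: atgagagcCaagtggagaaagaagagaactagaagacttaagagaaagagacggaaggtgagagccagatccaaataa
RPL41B, chromosome IV, 221724 to 221801, minus strand: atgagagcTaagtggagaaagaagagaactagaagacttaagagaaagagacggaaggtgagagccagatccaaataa
The substitution is C9T, with RPL41A as the reference and positions counted from the first base of the coding sequence. Over their 78 bases the copies are 98.7% identical.

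The third set comes from the promoters of genes for growth on carbon sources other than glucose, which as a group stood lower with Dox. It shows matches to the carbon source responsive element (CSRE), the site through which the activators Cat8 and Sip4 are known to act, searched as CCNNNNNNCCG on both strands. The capitals mark the match, written on the strand of the gene.
ICL1, chromosome V, 287287 to 287327, minus strand: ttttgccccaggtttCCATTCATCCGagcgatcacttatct
ACS1, chromosome I, 45368 to 45408, minus strand: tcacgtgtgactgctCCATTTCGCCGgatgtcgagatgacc
PCK1, chromosome XI, 630656 to 630696, plus strand: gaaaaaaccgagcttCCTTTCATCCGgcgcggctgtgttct
FBP1, chromosome XII, 875207 to 875247, minus strand: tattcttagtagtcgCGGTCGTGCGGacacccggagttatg
SFC1, chromosome X, 609273 to 609307, plus strand: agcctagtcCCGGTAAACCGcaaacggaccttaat
These matches begin 398, 371, 481, 440 and 491 bases before the start of their genes, in the order shown. A match describes letters only and is not evidence of binding.

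Most genes stood close to equal with the 2 drugs. The median log2 ratio of Dox to Tet was -0.12, a level 1.08-fold higher with Tet, and the lower and upper quartiles were -0.21 and -0.01. Most of the distribution lay on the Tet side: 77.9% of the genes, 4612 of 5920, were higher with Tet. This shift was not uniform, as it differed with level and length, described below. On the 16 nuclear chromosomes the median ranged from -0.13 (chromosomes II and XVI) to -0.10 (chromosome XII), so the shift was spread over the genome.

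At least 1.5-fold apart were 29 genes higher with Dox, which is 0.490% of the genes compared, and 73 genes higher with Tet, which is 1.23%. At least 2-fold apart were 14 genes higher with Dox (0.236%) and 20 higher with Tet (0.338%). When the ratios were centred on their median, 37 genes were at least 1.5-fold higher with Dox and 43 higher with Tet, so the excess on the Tet side was smaller once the shift was removed. Values below are uncentred, and list medians should be read against -0.12. Against the controls, 64.6% of all genes stood higher with Tet and 43.9% stood higher with Dox, the shares beside which the counts of genes above the controls should be read. Those counts share 1 control value per gene.

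**Figure D1:**
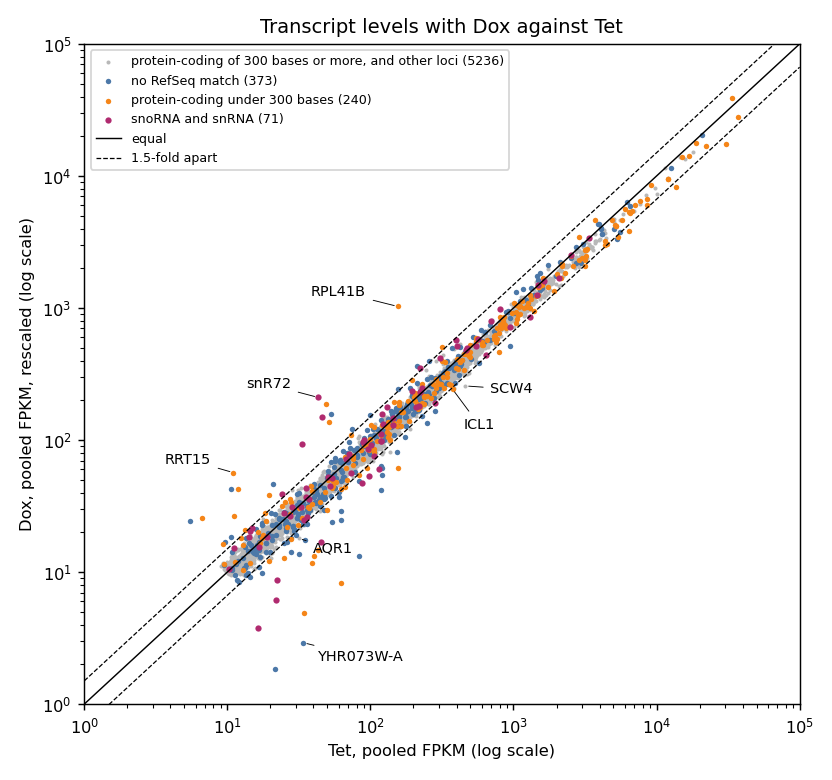
Pooled FPKM with Dox (vertical, rescaled to the Tet table) against pooled FPKM with Tet (horizontal), both on log scales, for the 5920 genes with a ratio. Colours mark classes of loci, the solid line marks equal levels and the dashed lines a 1.5-fold difference. Most points lie within the dashed lines, and the points far outside them are mainly snoRNAs, short protein-coding genes and loci without a RefSeq match.

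The genes furthest apart were nearly all short or overlapped another locus. Of the 29 genes at least 1.5-fold higher with Dox, 28 were snoRNAs or snRNAs, were shorter than 300 bases, overlapped another listed locus or had a near-identical copy. The same held for 66 of the 73 genes higher with Tet, and for 1449 of the 5920 genes compared. Among protein-coding genes of 300 bases or more, 0 of 5205 were at least 1.5-fold higher with Dox and 14 were higher with Tet. In the 4437 of these that overlapped no other locus and had no near-identical copy, 6 were at least 1.5-fold higher with Tet and none was 2-fold apart in either direction.

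The spread narrowed with length up to 500 to 1000 bases and changed little beyond. The quartiles of the log2 ratio were 0.64 apart for the 90 loci under 150 bases and 0.29 apart for the 221 loci of 150 to 300 bases. They were 0.16 apart for the 1455 loci of 500 to 1000 bases and 0.18 apart for the 2084 loci of 1000 to 2000 bases. Of the loci under 150 bases, 25.6% were at least 1.5-fold apart, against 0.192% of the 2084 loci of 1000 to 2000 bases. The number of fragments behind each locus is not given in these tables, and its part in this spread was not tested.

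**Figure D2:**
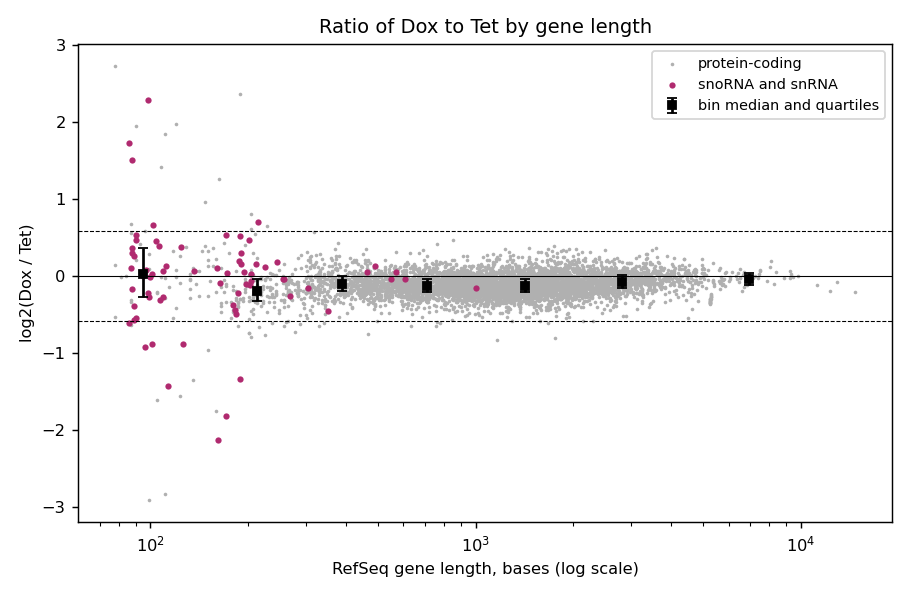
The log2 ratio of Dox to Tet (vertical) against RefSeq gene length in bases (horizontal, log scale) for protein-coding genes (grey) and snoRNAs and snRNAs (purple). Black squares are medians of length bins with bars from the lower to the upper quartile, and dashed lines mark 1.5-fold. The quartiles are 0.64 apart under 150 bases and 0.16 apart at 500 to 1000 bases.

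Level also went with the ratio. Among long genes without overlap or copy, the median log2 ratio was -0.04 at 10 to 30 FPKM (1154 genes), -0.16 at 100 to 300 FPKM (930 genes) and -0.21 at 1000 FPKM or more (166 genes). At 300 to 1000 FPKM (435 genes) it was -0.18. Genes of high transcript level thus stood lower with Dox, relative to Tet, than genes of low level. This gradient is given below beside several groups of high level, whose medians should be read against it as well.

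RPL41B had the largest ratio. It stood at 1028 FPKM with Dox and 155 FPKM with Tet, a 6.62-fold difference, with 584 FPKM in the controls and 547 FPKM with 4-ED. Its copy RPL41A went the other way, with 956 FPKM with Dox and 1384 FPKM with Tet (log2 ratio -0.53), and stood at 825 FPKM in the controls and 2166 FPKM with 4-ED. The sum of both copies was 1984 FPKM with Dox and 1539 FPKM with Tet, a log2 ratio of 0.37, and 2712 FPKM with 4-ED. RPL41A was chosen as the copy, after its values were seen. How the reads were divided between these near-identical copies is uncertain, and the gap in the sum was much smaller than the gap in RPL41B.

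Small nucleolar and nuclear RNAs diverged in both directions. Of 71 with a ratio, 5 were at least 1.5-fold higher with Dox and 8 higher with Tet, beside 0.490% and 1.23% of all genes. Together these were 18.3% of the 71, beside 25.6% of all loci under 150 bases and 10.4% of those of 150 to 300 bases. The median log2 ratio of the 71 was -0.01. The C/D snoRNA snR72 stood at 210 FPKM with Dox, 43.1 with Tet, 118 in the controls and 14.2 with 4-ED. For snR56, the levels were 94.1 FPKM with Dox and 33.2 with Tet, against 324 in the controls and 447 with 4-ED. For snR54, they were 151 FPKM with Dox and 45.8 with Tet, and this RNA lies within another listed locus. The 2 drugs thus fell on either side of the controls for snR72 and snR54, and both fell below them for snR56.

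Several snoRNAs were lower with Dox. Those furthest apart were snR161, with 3.75 FPKM with Dox and 16.5 with Tet, and snR85, with 6.14 and 21.7 FPKM, both H/ACA RNAs, the class that guides the conversion of uridine to pseudouridine. The C/D snoRNA snR48 stood at 16.8 FPKM with Dox and 45.3 with Tet, and snR32, an H/ACA RNA, at 8.72 and 22.1 FPKM. In each of these 4 the controls lay between the drugs, at 9.27, 12.5, 35.5 and 14.9 FPKM.

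snR67 was listed at 0 with Dox, but at 251 FPKM with Tet, 478 in the controls and 311 with 4-ED. The reverse was seen for snR52, listed at 0 with Tet but at 84.5 FPKM with Dox, 139 in the controls and 209 with 4-ED. snR65 was listed at 0 with Tet and with 4-ED, and at 30.8 FPKM with Dox. The libraries were selected for mRNA, and most mature snoRNAs carry no poly(A) tail, so these values are what remained after selection. Listed at 0 with Dox were also the tRNA gene tS(AGA)L (32.4 FPKM with Tet) and the small open reading frames YKL145W-A (150 FPKM) and YOR161W-A (221 FPKM). The tRNA gene was listed at 0 with 4-ED as well and has a near-identical copy. YGR068W-A was listed at 0 with Tet and at 201 FPKM with Dox. All of these small open reading frames overlap another listed locus.

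The remaining wide ratios belonged to small open reading frames. Higher with Dox were RRT15 (56.69 against 11.02 FPKM), which has a near-identical copy elsewhere, MIN4 (42.7 against 11.9 FPKM), YHR022C-A (189 against 49.0 FPKM) and YMR315W-A (137 against 51.5 FPKM). Lower with Dox were YHR073W-A, with 2.92 against 34.1 FPKM the lowest ratio of all at -3.55, YKR075W-A (1.86 against 21.5 FPKM), YBL071C-B (8.24 against 62.2 FPKM), YGL006W-A (4.86 against 34.6 FPKM) and PLS1 (14.6 against 43.2 FPKM). YHR073W-A and YKR075W-A overlap other listed loci. For YHR073W-A the controls stood at 2.19 FPKM and 4-ED at 27.0 FPKM. The other loci among the 15 furthest apart in each direction were of the same kinds.

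**Figure D3:**
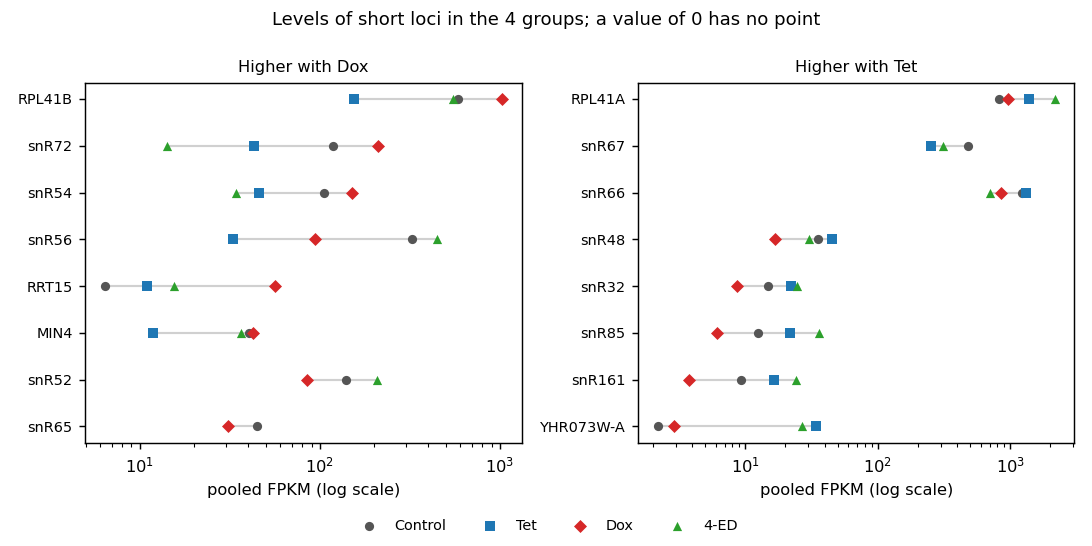
Pooled FPKM (horizontal, log scale) of short loci in control, Tet, Dox and 4-ED cultures, 1 symbol per group and a grey line over their range. The left panel holds loci higher with Dox and the right panel loci higher with Tet; a value listed at 0 has no symbol, as for snR52 and snR65 with Tet and snR67 with Dox. RPL41B runs from 155 FPKM with Tet to 1028 FPKM with Dox, while its copy RPL41A runs the other way.

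Of all lists, the lowest median belonged to gluconeogenesis and the glyoxylate cycle, through which yeast builds sugar from ethanol and acetate once glucose runs low. All 19 of its genes were below the median of all genes. Of them, 0 were at least 1.5-fold higher with Dox and 2 higher with Tet, beside 0.490% and 1.23% of all genes. The median log2 ratio of the 19 was -0.33, beside -0.12 for all genes. Long unique genes of 300 to 1000 FPKM, the range that holds the list's median level of 785 FPKM, had -0.18.

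ICL1, the isocitrate lyase that opens the glyoxylate cycle, stood at 244 FPKM with Dox and 374 FPKM with Tet, a 1.53-fold difference. The controls stood at 169 FPKM and 4-ED at 383 FPKM. FBP1, the fructose-1,6-bisphosphatase specific to gluconeogenesis, stood at 1488 FPKM with Dox and 2166 FPKM with Tet, with 1044 in the controls and 2072 with 4-ED. Dox thus lay between the controls and Tet for both genes, with 4-ED close to Tet.

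PCK1, the carboxykinase that makes phosphoenolpyruvate, showed the same order, with 2376 FPKM with Dox, 3245 with Tet, 1492 in the controls and 3382 with 4-ED. SFC1, the mitochondrial succinate-fumarate carrier, stood at 811 FPKM with Dox and 1007 with Tet, with 452 in the controls and 1139 with 4-ED. MLS1, the malate synthase of the cycle, chosen here after its values were seen, stood at 944 FPKM with Dox and 1248 with Tet. Over the list, 10 of 19 genes had the order control, Dox, Tet from low to high, as did 29.9% of all genes.

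In 7 further genes Dox lay below the controls and Tet above, as in 24.6% of all genes, and in the remaining 2 both drugs lay below, with Dox lowest. One of these, ACS1, an acetyl-CoA synthetase, stood at 81.2 FPKM with Dox, 122 with Tet, 124 in the controls and 137 with 4-ED. ACS1 was 1.50-fold apart between the drugs, with Tet at nearly the control level. CAT8, the activator of these genes, was the member nearest to the whole, with 87.4 FPKM with Dox and 95.3 with Tet (log2 ratio -0.13).

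CSRE matches were frequent in front of these genes. The list holds known targets of Cat8, so a high share follows from its make-up and says nothing about the drugs. Of the 19 promoters, taken as 500 bases before the coding start, 14 held a match (73.7%), against 1143 of 5444 promoters in all (21%). The 1143 genes with a match had a median log2 ratio of -0.14 and the 4301 without it -0.11. CSRE matches were also found for 9 of 17 genes of the TCA cycle and for 9 of 20 genes of peroxisomal beta-oxidation. Lists near the median of all genes held many matches too. They were found for 7 of 16 genes of homologous recombination and repair (43.8%, median log2 ratio -0.08). The large cytosolic ribosomal subunit had 29 of 81 (35.8%, median -0.14). In the cell wall list, which stood lower with Dox, 4 of 23 promoters held a match (17.4%).

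Peroxisomal beta-oxidation, which breaks down fatty acids, had a median log2 ratio of -0.30 over 20 genes, none of them 1.5-fold apart. CTA1, the peroxisomal catalase, was lowest with 68.5 FPKM with Dox and 95.8 with Tet. PXA1, a subunit of the transporter that brings fatty acids into the peroxisome, was highest at 38.2 and 35.8 FPKM. With Dox, 1 of the 20 genes stood above the controls (5%, beside 43.9% of all genes), and with Tet, 8 did (40%, beside 64.6%).

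The TCA cycle and the nuclear-encoded respiratory chain stood lower with Dox to a similar degree. The 17 TCA genes had a median log2 ratio of -0.23 and the 41 respiratory genes one of -0.27, with none 1.5-fold apart in either list. The TCA genes have a median level of 903 FPKM, and long unique genes of 300 to 1000 FPKM had a median of -0.18. The respiratory genes have a median level of 2527 FPKM, and long unique genes of 1000 FPKM or more had a median of -0.21. The 29 long unique respiratory genes had -0.23, closer to that value than the whole respiratory list. Of the 41 genes, 38 were above the controls with Tet (92.7%, beside 64.6% of all genes) and 22 with Dox (53.7%, beside 43.9%). COX9, a subunit of cytochrome c oxidase, had the lowest ratio, with 2300 FPKM with Dox, 3176 with Tet, 2534 in the controls and 3903 with 4-ED. SDH2, the iron-sulfur subunit of succinate dehydrogenase, was equal, at 2745 FPKM with Dox and 2742 with Tet.

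The GID ubiquitin ligase marks gluconeogenic enzymes for destruction when glucose returns. Its 9 subunits had a median log2 ratio of -0.25 and none was 1.5-fold apart. VID24, its substrate receptor, stood at 143 FPKM with Dox and 174 with Tet, both below the controls at 297 FPKM. GID7 was lowest (35.5 and 44.3 FPKM) and GID10, another receptor, highest (18.0 and 17.7 FPKM).

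**Figure D4:**
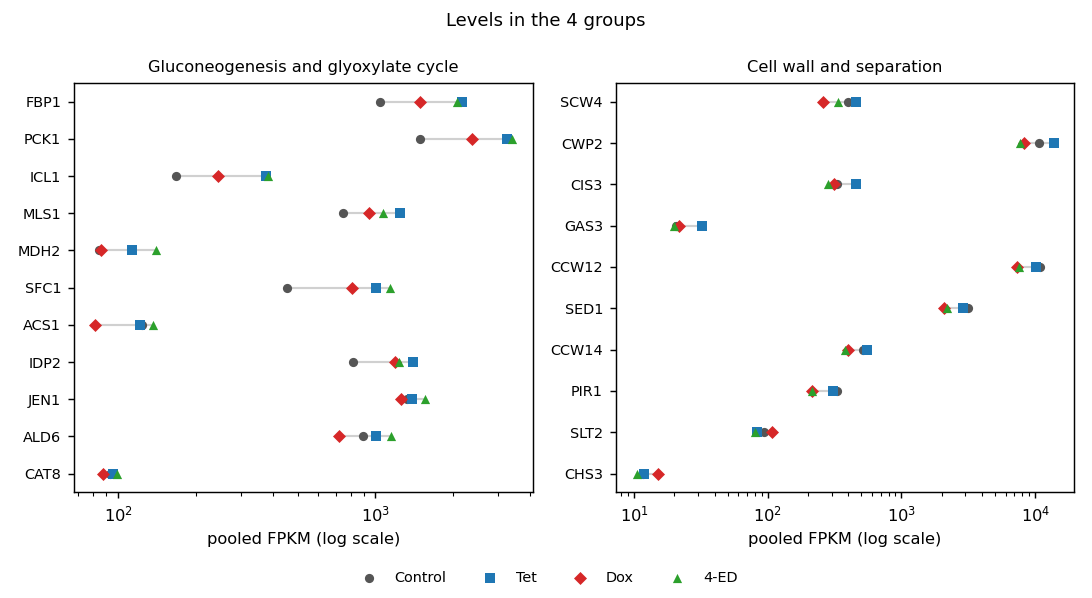
Pooled FPKM (horizontal, log scale) in control, Tet, Dox and 4-ED cultures for genes of gluconeogenesis and the glyoxylate cycle (left) and of the cell wall (right), 1 symbol per group. For FBP1, PCK1, ICL1 and SFC1 the Dox symbol lies between control and Tet. For SCW4 the Dox symbol lies below all other groups, at 257 FPKM.

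Cell wall genes had the next lowest median. The wall of yeast is a mesh of glucan and chitin coated with mannoproteins. Of 23 genes, 0 were at least 1.5-fold higher with Dox and 2 higher with Tet, beside 0.490% and 1.23% of all genes. The median log2 ratio was -0.31 at a median level of 116 FPKM, and long unique genes of 100 to 300 FPKM had -0.16. SCW4, a cell wall protein with similarity to glucanases, had the lowest ratio of any long gene without overlap or copy, with 257 FPKM with Dox and 459 with Tet, a 1.79-fold difference. The controls stood at 396 FPKM and 4-ED at 335 FPKM, so Dox was the lowest of the 4 groups.

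CWP2, a major mannoprotein of the wall, stood at 8256 FPKM with Dox and 13728 with Tet, 1.66-fold apart, with 10644 in the controls and 7714 with 4-ED. CIS3, CCW12 and SED1, further wall mannoproteins chosen after their values were seen, stood at 315, 7272 and 2063 FPKM with Dox. With Tet they stood at 455, 10151 and 2875 FPKM. For CWP2 and CCW12 Dox resembled 4-ED more than Tet in level, which differs from the order seen for FBP1 and PCK1.

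Some genes for building the wall and for its control stood on the other side of the median of all genes. CHS3, the chitin synthase responsible for most wall chitin, had the highest ratio of the list, with 14.99 FPKM with Dox, 11.9 with Tet, 11.6 in the controls and 10.4 with 4-ED. SLT2, the MAP kinase of the cell wall integrity pathway, chosen after its values were seen, stood at 107 FPKM with Dox, 83.1 with Tet, 93.4 in the controls and 80.8 with 4-ED. FKS1 and GAS1, a glucan synthase and a glucan-remodelling enzyme also chosen afterwards, had log2 ratios of 0.10 and 0.05. CHS2, the chitin synthase of the septum, went the other way at -0.52. So did GAS3 (-0.58) and KRE1 (-0.50), further wall genes, all chosen in the same way. Since these genes were picked, they cannot show whether wall proteins and the genes that build the wall differ, which was not tested.

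Genes of daughter cell separation, by which the septum is digested after division, had a median log2 ratio of -0.16 over 14 genes. PIR1, a wall protein shared with the cell wall list, was lowest (216 FPKM with Dox, 306 with Tet), and DSE4, a daughter-specific glucanase, highest (27.1 and 26.4 FPKM). Of the 14 genes, 3 stood above the controls with Tet (21.4%, beside 64.6% of all genes) and 2 with Dox (14.3%, beside 43.9%).

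Mating genes of MATa cells had a median log2 ratio of -0.21 over 15 genes. MFA2, an a-factor gene, was lowest, with 2979 FPKM with Dox, 4347 with Tet, 4638 in the controls and 4461 with 4-ED. Its partner MFA1 hardly differed (2493 and 2543 FPKM). STE18, the gamma subunit of the pheromone G protein, was highest (351 and 340 FPKM). MF(ALPHA)1, an alpha-factor gene that a cells keep low, stood at 39.0 FPKM with Dox and 58.9 with Tet, against 26.9 in the controls.

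Among transporters, AQR1 was set apart. It encodes a plasma membrane exporter of the major facilitator family, linked to acid and drug resistance and to amino acid excretion. AQR1 stood at 18.0 FPKM with Dox and 31.6 with Tet, 1.76-fold apart, with 47.1 in the controls and 33.4 with 4-ED. The 24 multidrug transporters and their regulators had a median log2 ratio of -0.11, beside -0.12 for all genes, and AQR1 was the only member at least 1.5-fold apart. The main drug pump PDR5 and its activator PDR1, chosen after their values were seen, had log2 ratios of -0.17 and -0.02, and YOR1, another ABC pump, had the highest ratio at 0.04.

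The 8 genes listed under ammonium and carboxylic acid export had a median log2 ratio of -0.28. AQR1 is also in this list, as its lowest member and the only one at least 1.5-fold apart. An ammonium permease, MEP2, is in it too. ATO2, a putative ammonium exporter chosen after its values were seen, stood at 315 FPKM with Dox and 471 with Tet, against 543 in the controls and 477 with 4-ED. MEP2, the high-affinity ammonium permease, was equal (80.1 and 79.9 FPKM). As with AQR1 and SCW4, the Dox value of ATO2 was the lowest of the 4 groups.

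**Figure D5:**
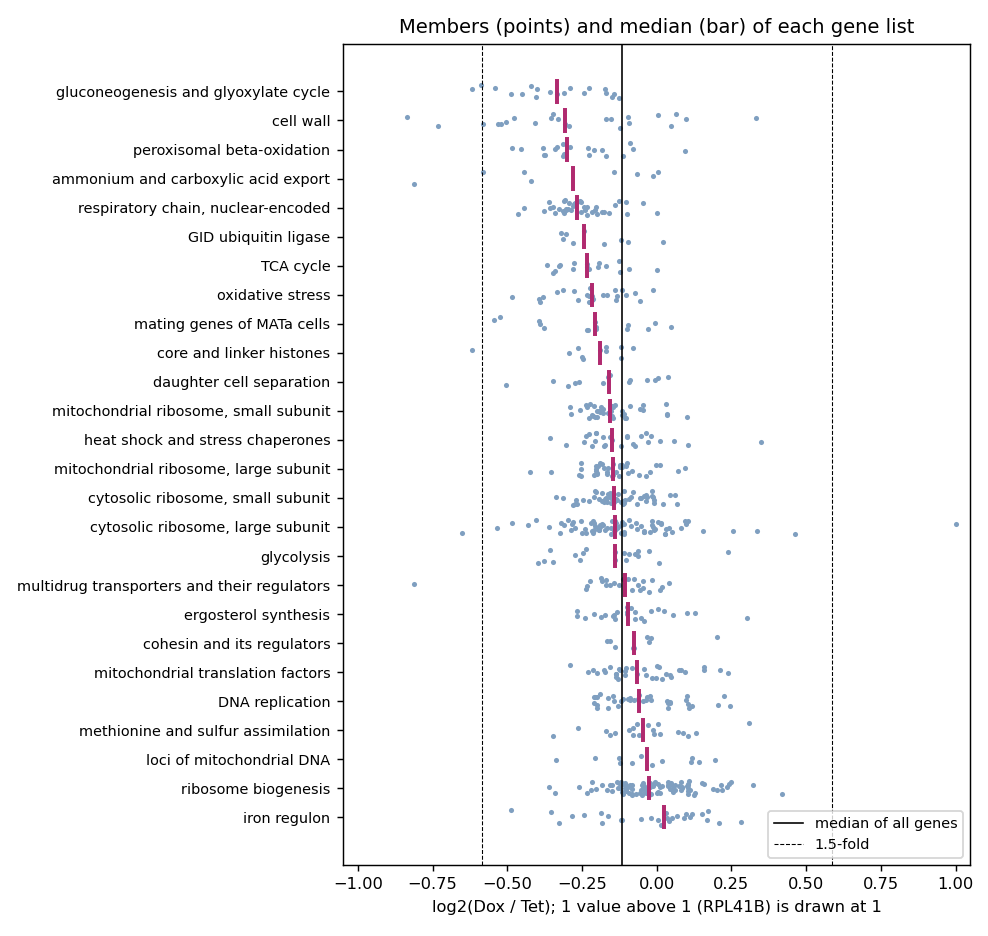
The log2 ratio of Dox to Tet (horizontal) for members of 26 gene lists, each point a gene and each bar the median of its list, ordered by median. The solid line marks the median of all genes (-0.12) and the dashed lines 1.5-fold; RPL41B, at 2.73, is drawn at the edge. Of the lists drawn, gluconeogenesis has the lowest median (-0.33) and the iron regulon the highest (0.02), and nearly all points lie within 1.5-fold.

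Mitochondrial translation, the process tetracyclines are known to inhibit in mitochondria, was represented by genes whose ratios stood near the median of all genes. The 39 proteins of the small mitochondrial ribosomal subunit and the 40 of the large subunit both had a median log2 ratio of -0.15, with none 1.5-fold apart. The lowest was MRPL38 (131 FPKM with Dox, 175 with Tet), which overlaps another locus, and the highest RSM22 (29.8 and 27.8 FPKM). The 35 mitochondrial translation factors had a median of -0.07, from CBP6, a factor for cytochrome b translation, at -0.29 to MST1, a threonyl-tRNA synthetase, at 0.24. The 17 matrix chaperones and proteases had a median of -0.15, with YTA12, a subunit of the m-AAA protease, lowest (139 and 188 FPKM).

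The list of loci on mitochondrial DNA had a median log2 ratio of -0.03 over 12 loci, none 1.5-fold apart. All 13 compared loci of the mitochondrial genome had a median of -0.02. Of these 13, 1 outside the list was at least 1.5-fold higher with Dox (7.69%, beside 0.490% of all genes). In the list, OLI1, a subunit of ATP synthase, was lowest with 1700 FPKM with Dox, 2149 with Tet, 1734 in the controls and 3015 with 4-ED. AI4, an intron-encoded endonuclease that overlaps other loci, was the highest of the list (26.7 and 23.4 FPKM). Mitochondrial transcripts mostly lack long poly(A) tails in yeast, and the libraries were selected for mRNA, so these levels are not comparable with those of nuclear genes.

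Cytosolic ribosomal proteins stood near the whole, with a median log2 ratio of -0.14 for both the 57 small-subunit and the 81 large-subunit genes. Their median levels were 624 and 535 FPKM. The long unique genes among them had medians of -0.15 (28 genes) and -0.12 (37 genes). All long unique genes of 300 to 1000 FPKM had -0.18. Apart from RPL41B, 1 gene was at least 1.5-fold apart: RPL22A, with 121 FPKM with Dox, 191 with Tet, 97.8 in the controls and 118 with 4-ED. RPL22A overlaps another listed locus. Its paralog RPL22B, chosen after its values were seen, went the other way, at 103 and 81.8 FPKM, and the sum of the pair had a log2 ratio of -0.28. RPL33B and RPL33A, chosen in the same way, also stood on either side of 0, with log2 ratios of 0.46 and -0.24, and their sum had 0.18.

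Ribosome biogenesis factors, which assemble ribosomes in the nucleolus, were among the lists highest with Dox relative to Tet. Their median log2 ratio was -0.03 over 97 genes, and 21 of them (21.6%) lay below the median of all genes. RPA12, a subunit of RNA polymerase I, was highest with 43.6 FPKM with Dox, 32.6 with Tet, 44.0 in the controls and 39.7 with 4-ED. DBP1, an RNA helicase, was lowest (49.4 and 63.4 FPKM). The list's median level was 44.0 FPKM, a range in which long unique genes had a median of -0.10. Of their promoters, 44 of 97 held the PAC motif GCGATGAG (45.4%), against 270 of 5444 in all (4.96%). This share describes the list and not the drugs.

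Genes of DNA replication stood at similar levels with both drugs. The 39 replication genes had a median log2 ratio of -0.06, from RFA2, a subunit of the single-strand binding complex, at -0.21 to POL32, a subunit of polymerase delta, at 0.25. POL1 and POL2, catalytic subunits of polymerases alpha and epsilon, stood at 14.3 and 15.4 FPKM with Dox and at 13.2 and 15.1 with Tet. In the controls they stood at 8.58 and 10.1 FPKM, so both drugs lay above them by more than they lay apart. Of the 39 promoters, 16 held the MCB motif ACGCGT (41%), against 285 of 5444 in all (5.24%). That share, too, describes the list and not the drugs.

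The study names further genes of this group, and SMC1, RNR1, ECO1 and RTT107 were likewise further from the controls than the drugs were from each other. SMC1, a cohesin subunit, stood at 24.2 FPKM with Dox, 24.8 with Tet and 15.003 in the controls. RNR1, the large subunit of ribonucleotide reductase, stood at 15.1, 13.6 and 8.54 FPKM in the same order, and ECO1, the cohesin acetyltransferase, at 23.5, 20.4 and 12.8 FPKM. RTT107, a scaffold of the replication repair response, stood at 17.6, 18.5 and 11.3 FPKM. CDC45, a helicase cofactor, and RAD53, the checkpoint kinase, were under 10 FPKM and therefore outside the comparison, with 6.25 and 5.95 FPKM with Dox, 6.02 and 4.45 with Tet and 3.54 and 3.38 in the controls. For RAD53 the drugs lay further apart than Tet lay from the controls.

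RMI1, a partner of the Sgs1 helicase, stood at 409 FPKM with Dox, 427 with Tet and 260 in the controls. ASF1, a histone chaperone, stood at 90.3, 101 and 55.2 FPKM, GIN4, a bud neck kinase, at 16.5, 18.0 and 9.98 FPKM, and KAR3, a kinesin motor, at 18.0 FPKM with Dox and 11.2 in the controls, with a log2 ratio of Dox to Tet of -0.15. All 9 kinesin and spindle genes and all 12 septin and bud neck genes stood above the controls with both drugs, beside 64.6% of all genes with Tet and 43.9% with Dox. Their median log2 ratios of Dox to Tet were -0.15 and -0.08.

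Histone genes had a median log2 ratio of -0.19 at a median level of 1392 FPKM, and long unique genes of 1000 FPKM or more had -0.21. The 5 long unique histone genes had -0.26. Of the 11 histone genes, 1 was at least 1.5-fold apart. This was HHO1, the linker histone, with 78.7 FPKM with Dox, 121 with Tet, 80.0 in the controls and 88.9 with 4-ED. Dox was close to the control level, and Tet was the highest group. HHT1, a histone H3 gene with a near-identical copy, was highest at 1689 and 1786 FPKM. SML1, an inhibitor of ribonucleotide reductase, was the lowest of the 17 reductase and checkpoint genes, with 1478 FPKM with Dox and 2074 with Tet.

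The iron regulon, the genes for uptake and use of iron under control of Aft1, had the highest median of the lists drawn, 0.02 over 28 genes, none 1.5-fold apart. A list not drawn, RNA polymerase III and abundant noncoding RNAs, stood higher, with a median of 0.07 over 10 loci. Of these 10, 1 (snR7-L, which overlaps another listed locus) was at least 1.5-fold higher with Dox, as were 0.490% of all genes. In the iron regulon, FRE1, a ferric reductase, was highest with 56.8 FPKM with Dox, 46.7 with Tet, 47.6 in the controls and 38.9 with 4-ED. HMX1, a haem oxygenase, was lowest (15.6 and 21.8 FPKM). Of the 28 iron genes, 8 stood above the controls with Dox (28.6%, beside 43.9% of all genes) and 6 with Tet (21.4%, beside 64.6%).

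Of other genes of sugar, glycerol and arginine use that the study names, HXK2, the main glucose-phosphorylating hexokinase, stood at 37.7 FPKM with Dox, 31.9 with Tet, 37.7 in the controls and 20.4 with 4-ED, the highest ratio of the 19 glycolysis genes at 0.24. GPP2 (HOR2), a glycerol phosphatase, stood at 81.2 and 83.6 FPKM, against 132 in the controls. PFK27, an enzyme that makes the glycolytic activator fructose-2,6-bisphosphate, was outside the comparison at 6.98 and 5.91 FPKM. The arginine-breakdown enzymes CAR1 and CAR2 stood at 79.3 and 45.8 FPKM with Dox and at 101 and 61.6 with Tet, below the controls (148 and 86.5 FPKM) with both drugs.

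Long genes higher with Dox were all under 1.5-fold. The highest of those without overlap or copy were RPL33B, RPA12 and CUR1, a protein that sorts misfolded proteins to the nucleus. CUR1, chosen after its values were seen, stood at 41.5 FPKM with Dox, 31.3 with Tet, 48.2 in the controls and 25.5 with 4-ED. BTN2, its paralog, was the highest of 27 heat shock and chaperone genes with 536 FPKM with Dox, 421 with Tet, 349 in the controls and 433 with 4-ED. URA7, a CTP synthase that overlaps another locus, stood at 20.8 and 15.98 FPKM, and HOM3, the first enzyme towards methionine and threonine, at 18.3 and 14.8 FPKM. For CUR1, URA7, HOM3 and RPA12 Dox lay closer to the controls and Tet below them, and for BTN2 both drugs lay above the controls.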

How the data were processed

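RNA was sequenced from 3 control cultures and 3 cultures each with Tet, Dox or 4-ED, in a single run of mRNA-selected libraries. The authors aligned reads to genome build R64 using Bowtie2 and compared each drug with the controls in Cuffdiff; versions are not given in the sources used here. The deposited FPKM values, made by the authors, are 1 per group and table, scaled by Cuffdiff within each table. The tables also hold the authors' log2 fold changes, test statistics, p-values, q-values and significance calls against control, which were not used.

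The Dox and Tet tables were joined by gene identifier, loci with status OK in both were kept, and Dox values were multiplied by the median ratio of the control values. The log2 ratio was taken at a mean of at least 10 FPKM without a pseudocount. In the rule's filter, genes just inside were MND1 (mean 10.01 FPKM, log2 ratio 0.09) and SCP160 (10.01 FPKM, -0.04), and just outside RED1 (9.97 FPKM, -0.09) and YGR126W (9.95 FPKM, -0.26). RefSeq names, lengths and biotypes matched 6121 of 7080 loci and 93.7% of the genes compared. Start coordinates in the tables count from 0 and were raised by 1. A near-identical copy was called where blastn 2.17.0 aligned at least 50% of a locus elsewhere at 90% identity or more. List members without a match (ARG5,6, DUR1,2, CRS5, ADE5,7, TSF1 and TLC1) were left out, as was PDE3, a name the tables do not hold.

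Genes are named when they are among the 15 furthest apart in each direction, 1.5-fold apart or the extremes of a list, named by the study, markers of mating type or of the strain's mutations, or listed at 0 with either drug. Any other gene is marked where it is named. The gene lists and the comparison were chosen with earlier results of these data known. Promoters were searched on both strands for 14 motifs: CSRE as CCNNNNNNCCG, the G1/S element MCB as ACGCGT, the stress element STRE as AGGGG, the Mig1 site as GCGGGG, the Gcn4 site as TGACTC, the GATA factor site as GATAAG, the meiotic element URS1 as GCCGCC, the pleiotropic drug element as CCGCGG, the Aft1 site as GCACCC, the Crz1 site as GAGGCTG, the pheromone element as TGAAACA, the PAC element as GCGATGAG, the Cbf1 and Pho4 site as CACGTG and the Upc2 site as TCGTATA. Matches of CSRE, Mig1 and URS1 can overlap. A further motif is not reported here. The steps were tested on simulated data. Python 3.11.15 was used with numpy 2.4.6, pandas 2.3.3 and matplotlib 3.10.9.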

Additional observations from a re-analysis of the deposited data

How the results depend on the processing

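No paired analysis was possible because the tables hold 1 pooled value per group, and for the same reason no replicate could be left out. The counts of genes at least 1.5-fold higher with Dox and with Tet, then at least 2-fold, were 29, 73, 14 and 20. They became 51, 161, 22 and 65 at a mean of at least 1 FPKM, 62, 184, 30 and 77 with no filter, and 10, 22, 4 and 1 at a mean of at least 100 FPKM. They became 13, 34, 7 and 6 among protein-coding loci, 13, 34, 7 and 9 among loci without overlap or near-identical copy, and 0, 6, 0 and 0 among protein-coding loci of 300 bases or more without either, the last an alternative chosen after the data were seen. Centring took the median from -0.12 to 0.00 by construction and the 1.5-fold count with Tet to 43. All counts stayed within 1.5 times their value without rescaling, with each gene's own control ratio, with a pseudocount of 1 FPKM and with any Cuffdiff status. No named gene past 1.5-fold changed direction under any of these settings. Of the 55 list medians none moved by 0.1 or more on the log2 scale without rescaling or with the pseudocount, all 55 did on centring, 12 did at a mean of at least 100 FPKM, 2 did among the long loci without overlap or copy, and 1 each did at a mean of at least 1 FPKM, with no filter and among loci without overlap or copy. The pseudocount moved 9 named genes by as much. No value per culture and no fragment count was used, so precision is unknown.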

Other observations

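The further lists given here had medians between -0.22 and -0.05, beside -0.12 for all genes. Genes against oxidative stress had a median log2 ratio of -0.22 over 25 genes, of which 80% lay below the median of all genes. Their median level was 328 FPKM, and long unique genes of 300 to 1000 FPKM had a median of -0.18. CTA1 was lowest and GPX2, a glutathione peroxidase, highest (32.6 FPKM with Dox, 32.8 with Tet). The zinc regulon had -0.19 over 12 genes, of which 83.3% lay below the median of all genes, from its activator ZAP1 (17.7 and 23.3 FPKM) to the transporter ZRT1 (20.9 and 19.0 FPKM). Amino acid permeases had -0.15 over 18 genes, with SAM3, a permease for S-adenosylmethionine, lowest at 70.2 and 96.1 FPKM. Genes of folding in the endoplasmic reticulum had -0.08 over 19, methionine and sulfur genes -0.05 over 20, and ergosterol genes -0.10 over 26, with ERG2, the sterol isomerase, highest at 132 and 107 FPKM. None of these genes was at least 1.5-fold apart.

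The metallothionein genes CUP1-1 and CUP1-2, near-identical copies that bind copper, CUP1-2 chosen as the copy of CUP1-1, stood far below the controls with both drugs and not with 4-ED. Their summed level was 18897 FPKM with Dox, 24094 with Tet, 45488 in the controls and 42776 with 4-ED. The Dox and Tet sums had a log2 ratio of -0.35.

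Of the 14 promoter motifs, the median log2 ratio of genes with a match ranged from -0.15 (pleiotropic drug element and URS1) to -0.08 (MCB). The STRE motif of the general stress response was matched by 1896 promoters, with a median of -0.14 against -0.11 for the 3548 without it.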
